A study of Caenorhabditis elegans with 3 samples.

Results

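The glutathione S-transferase genes of the nematode Caenorhabditis elegans were followed in RNA of late third-stage (late L3) larvae. They were taken by name, as every gene with a symbol of gst, gsto or gstk and a number and with a probe given to that gene only. The family itself was chosen with earlier results of these data known. There were 37 such genes among 15143 genes tested, each with 1 probe and with values on all 3 arrays. The RefSeq gene table (assembly WBcel235) lists 49 genes with such symbols, and the other 12 had no probe given to that gene only and were not analysed here. Those 12 were gst-17, gst-37, gst-43 and a run of 9 neighbours on chromosome II. In gene order, that run held gst-26, gst-27, gst-28, gst-29, gst-39, gst-31, gst-32, gst-34 and gst-35.

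Glutathione S-transferases join the tripeptide glutathione to reactive or toxic compounds, and some also isomerise or reduce their substrates. Together with cytochrome P450 and glucuronosyltransferase enzymes they make up much of the detoxification system of the worm. The transcription factor SKN-1, the worm counterpart of mammalian Nrf, is known to switch on several gst genes under oxidative or chemical stress, and the intestine is a main site of their expression.

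The samples were late L3 hermaphrodites in 3 preparations (preps 1, 2 and 3), each on its own 2-colour array against a common reference described as wild-type and mixed. The labels name no treatment, no allele and no strain of the larvae, give the code TP02 without explaining it, and do not say which stages or sexes the reference pooled or whether the preps were separate cultures. The p-values below rest on how far the 3 preps lie apart, in the gene itself and in a spread shared over all genes. Part of that spread may be technical, and prep, array and array date are a single factor. A value is the log2 ratio of the channels, with each array centred on its median, so 0 is the level of the median probe and 1 unit is a 2-fold difference. Late L3 over reference is the likely direction, not a stated one, and "higher" and "lower" below assume it.

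Between 19855 and 19909 of the 20000 probes had a value per array. The number of arrays limits the precision. Ratios were less spread in prep 3, with a scaled median absolute deviation over all probes of 0.394 against 0.689 in prep 1 and 0.771 in prep 2. Markers of oocytes and eggshell were lower for 5 of 6 genes, sperm markers for 3 of 5, and 0 of 4 male markers passed the test in either direction in limma (0 at an unadjusted p under 0.05), where 11.4% of all genes were called higher and 11.9% lower.

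Of the 37 glutathione S-transferase genes, 11 were higher in late L3 larvae than in the reference, 4 were lower and 22 did not pass the test (limma, Benjamini-Hochberg adjusted p under 0.05). The higher genes made up 29.7% of the members, against 11.4% of all genes tested, and the lower ones 10.8% against 11.9%. The median of the members' mean log2 ratios was 0.17, with a mean of 0.21, against a median of -0.0023 over all genes. Leaving out prep 2 gave 5 higher and 4 lower members, when 5.02% and 6.61% of all genes were called. The member median was 0.36 without prep 2, -0.019 without prep 1, and 0.026 when a running median along the probe identifiers was subtracted. A difference of at least 2-fold was shown by 7 of the higher genes (18.9% of members, against 6.71% of all genes) and by 3 of the lower ones (8.11% against 6.96%). In samples of whole animals, a difference in the share of cells that express a gene and a difference in RNA per cell cannot be told apart.

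**Figure D1:**
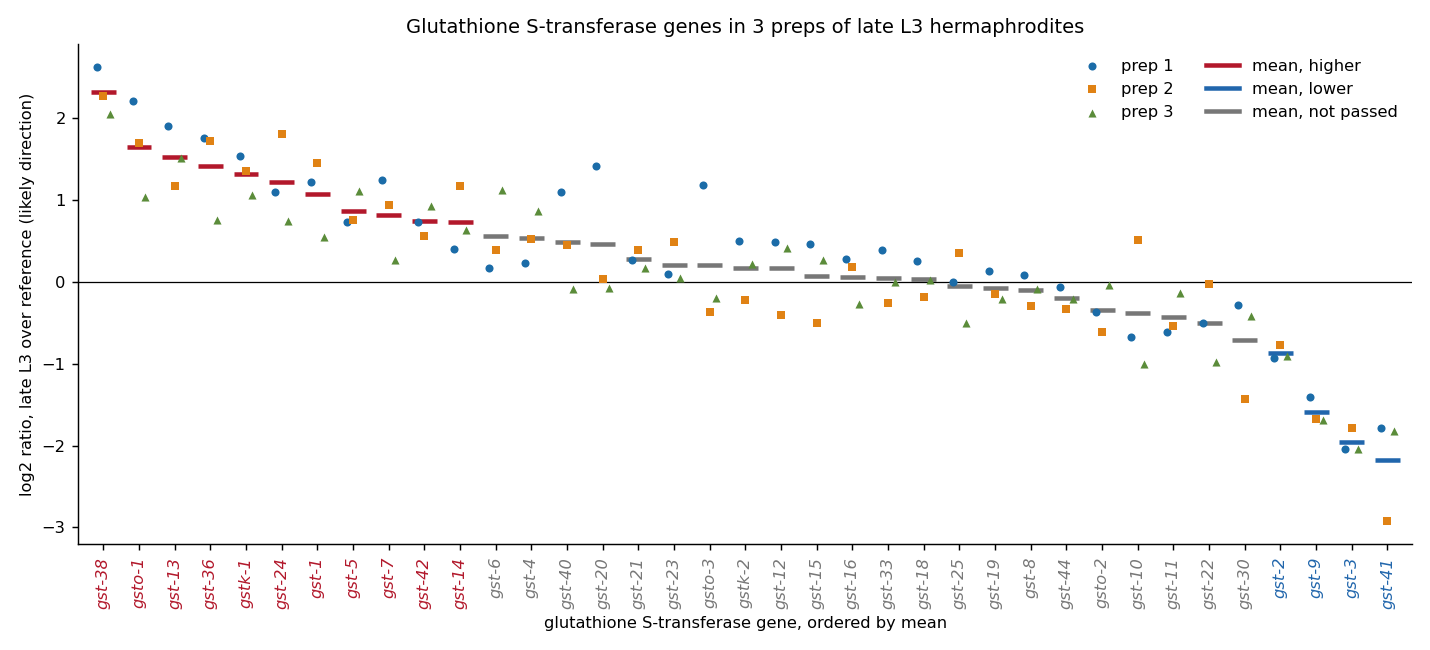
Log2 ratio of each of the 37 genes (vertical axis) in prep 1 (circles), prep 2 (squares) and prep 3 (triangles), with genes ordered by their mean, drawn as a bar coloured by the limma call. The order runs from gst-38 at a mean of 2.32 to gst-41 at -2.18, and most genes lie between the 11 higher and the 4 lower ones.

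The gene gst-38 (F35E8.8, chromosome V) stood highest, with log2 ratios of 2.63, 2.27 and 2.05 in preps 1, 2 and 3. All preps were far above the array median, and the mean of 2.32 ± 0.29 (SD, n = 3) was 4.99-fold (adjusted p = 6.84e-05). It ranked 127 from the top among the 15143 genes.

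The omega-class enzymes, whose mammalian relatives reduce dehydroascorbate and mixed disulfides with glutathione rather than conjugate it to toxic compounds, had 1 of 3 measured gsto members higher and 0 lower. The gene gsto-1 (C29E4.7, III), known to act in the intestine under oxidative stress, was at 2.22, 1.70 and 1.04. It was above the median in every prep and lowest in prep 3, with a mean of 1.65 ± 0.59, 3.14-fold (adjusted p = 0.0013). In contrast, gsto-2 (III) was at -0.37, -0.61 and -0.03 and gsto-3 (III) at 1.18, -0.37 and -0.19, and neither passed (adjusted p = 0.301 and 0.667). The log2 ratio of gsto-1 exceeded that of gsto-2 by 2.59, 2.30 and 1.07 in the 3 preps and that of gsto-3 by 1.04, 2.07 and 1.23. These differences between genes were not tested.

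Kappa-class transferases reside in mitochondria and peroxisomes of mammals. The worm gene gstk-1 (ZK1320.1, II) was at 1.54, 1.36 and 1.06, above the median in every prep, with a mean of 1.32 ± 0.24, 2.49-fold (adjusted p = 0.00171). Its relative gstk-2 (IV) was at 0.50, -0.22 and 0.22, on both sides of the median, and did not pass (adjusted p = 0.638). The difference between the log2 ratios of the pair was 1.15 ± 0.38, from 0.84 to 1.57, and was not tested.

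A pi-class gene and a zeta-class gene were also among the higher genes, and the other gst members were not sorted by class here. The pi-class gene gst-1 (R107.7, III), known to protect dopamine neurons of the worm, was at 1.22, 1.45 and 0.55, with a mean of 1.07 ± 0.47, 2.10-fold (adjusted p = 0.00949). All 3 preps lay above the median, but the call ended without prep 2 and also with the identifier trend subtracted (mean 0.571, adjusted p = 0.0592). The gene gst-42 (D1053.1, X) encodes the zeta-class maleylacetoacetate isomerase of tyrosine breakdown. It was at 0.73, 0.56 and 0.93, close together and all above the median, with a mean of 0.74 ± 0.18 (adjusted p = 0.0291). Its call ended without any 1 of the preps and with that trend subtracted (adjusted p = 0.086).

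Several worm transferases are known to conjugate 4-hydroxynonenal, a toxic product of lipid peroxidation, among them the products of gst-5, gst-8, gst-10 and gst-24. Of these 4 genes, 2 were higher. The gene gst-24 (F37B1.1, II) was at 1.101, 1.80 and 0.75, with a mean of 1.22 ± 0.54, 2.33-fold (adjusted p = 0.00599). The gene gst-5 (R03D7.6, II) was at 0.73, 0.76 and 1.11, with a mean of 0.87 ± 0.21 (adjusted p = 0.0151). Both were above the median in every prep. Both calls ended without prep 2, and that of gst-5 also without prep 3. The gene gst-8 (II) stayed near the median at 0.08, -0.30 and -0.08 (adjusted p = 0.778). The preps disagreed on gst-10 (V), which was at -0.67 and -0.999 in preps 1 and 3 and at 0.52 in prep 2 (adjusted p = 0.382).

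The other higher genes, gst-13, gst-36, gst-7 and gst-14, are named here by symbol only. Of these, gst-13 (T26C5.1, II) was at 1.90, 1.17 and 1.51 (mean 1.53 ± 0.36, adjusted p = 0.000969). The gene gst-36 (R07B1.4, X) was at 1.76, 1.73 and 0.76 (mean 1.42 ± 0.57, adjusted p = 0.00287). These means correspond to 2.88-fold and 2.67-fold, with no prep at or below the median. Smaller differences were seen for gst-7 (F11G11.2, II) at 1.25, 0.94 and 0.26 and for gst-14 (F37B1.3, II) at 0.40, 1.17 and 0.63. Their means were 0.82 ± 0.50 (adjusted p = 0.0353) and 0.73 ± 0.39 (adjusted p = 0.043), and gst-14 was the member nearest inside the threshold. The call for gst-7 ended without prep 1 or prep 2, and that for gst-14 without prep 2 or prep 3 or with the identifier trend subtracted (mean 0.361, adjusted p = 0.265).

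The 4 lower genes were gst-41, gst-3, gst-9 and gst-2. The gene gst-41 (R13D7.7, V) was at -1.78, -2.93 and -1.82. It was far below the median in every prep and lowest in prep 2, with a mean of -2.18 ± 0.65, 4.52-fold lower (adjusted p = 0.000327), and ranked 217 from the bottom of the 15143 genes. Values of gst-3 (K08F4.11, IV) were -2.04, -1.79 and -2.04, with a mean of -1.96 ± 0.15, 3.89-fold lower (adjusted p = 0.000142). Those of gst-9 (R05F9.5, II) were -1.41, -1.68 and -1.68, with a mean of -1.59 ± 0.16, 3.01-fold lower (adjusted p = 0.0005). The preps lay close together for both genes. The gene gst-2 (K08F4.6, IV) was at -0.94, -0.77 and -0.90, the smallest spread of any member, with a mean of -0.87 ± 0.09, 1.83-fold lower (adjusted p = 0.013). That call ended without prep 3.

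The means of the 22 genes that did not pass ran from -0.71 to 0.56. For 15 of them the 95% interval of the mean lay within 1 log2 unit of 0 on both sides, which leaves out a difference of 2-fold or more at that level. An unadjusted p under 0.05 was found for 3 of them, gst-30, gst-4 and gst-6. The gene gst-30 (II), nearest outside the threshold, was at -0.28, -1.43 and -0.42 (adjusted p = 0.0783). It was below the median in every prep, but most of its distance came from prep 2. In limma without prep 1 it was called lower, with a mean of -0.923 (adjusted p = 0.0179). It was not called without prep 2 (mean -0.350, adjusted p = 0.364) or without prep 3 (mean -0.853, adjusted p = 0.0786). Reporters of gst-4 (IV) are widely used as a readout of SKN-1 activity. The gene was at 0.24, 0.53 and 0.86, above the median in every prep, with a mean of 0.54 ± 0.31 and a 95% interval from 0.05 to 1.03 (adjusted p = 0.106). The gene gst-6 (II) was at 0.17, 0.39 and 1.12 (adjusted p = 0.128).

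In all, 15 members (40.5%) were above 0 on all 3 arrays, against 26.8% of all genes, and 9 (24.3%) were below 0 on all 3, against 29.2%. All 15 members that passed the test had 1 sign on every array. Of those with 1 sign that did not pass, gst-4, gst-6, gst-21 and gst-23 stood above the median, and gst-11, gst-22, gst-30, gst-44 and gsto-2 below it. The SD over the preps ranged from 0.09 to 0.85 among the members, with a median of 0.36, against 0.34 over all genes.

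**Figure D2:**
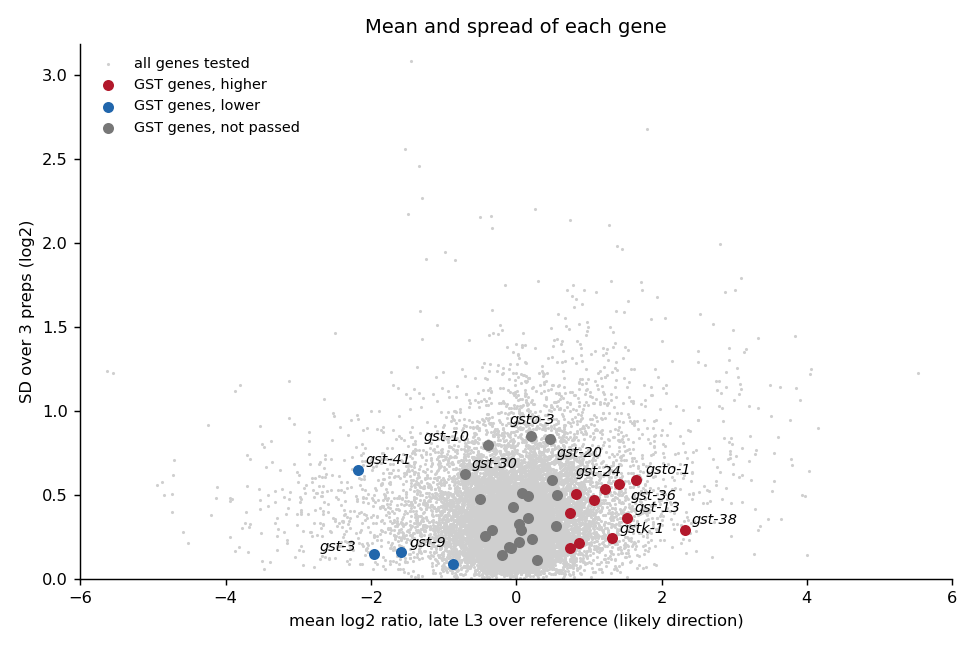
SD over the 3 preps (vertical axis, log2) against the mean log2 ratio (horizontal axis) for all 15143 genes (grey) and the 37 glutathione S-transferase genes (coloured by the limma call). The members lie within the cloud of all genes, with SDs from 0.09 to 0.85, and gst-38, gst-3 and gst-9 combine a large mean with a small SD.

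A single prep set the members with the largest SDs apart. The gene gsto-3 had an SD of 0.85 and gst-20 (II) of 0.83, and in both prep 1 stood over 1 log2 unit above both other preps. Values of gst-20 were 1.42, 0.03 and -0.07. Such a distance above the others in prep 1 was found for 2 of 37 members (5.41%), against 1.12% of all genes. In prep 2, gst-10 (SD 0.80) stood as far above both other preps, 1 member or 2.70%, against 3.24% of all genes. The genes gst-41 and gst-30 stood as far below both others in prep 2, 2 members or 5.41%, against 0.674% of all genes. In prep 1, 0 members stood as far below both other preps, and in prep 3, 0 stood as far above or below. Shares of all genes were not taken for those cases, so the shares given cover only cases where members were found. These counts are small, and no test was made of them.

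Prep 1 gave the highest value of the 3 for 21 of the 37 members (56.8%), against 31.8% of all genes. Prep 3 gave the lowest value for 17 (45.9%), against 32.1%. Among the 11 higher members, 7 were lowest in prep 3, where ratios were less spread over the whole array, and 59.0% of all higher genes were lowest there too. Over the 37 genes, Pearson's r between preps was 0.84 for preps 1 and 2, 0.85 for preps 1 and 3 and 0.81 for preps 2 and 3, against 0.71, 0.72 and 0.78 over all genes. These correlations describe genes that share the arrays and the reference, and genes are not independent replicates.

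Many gst genes lie side by side in the genome. When members at most 5 protein-coding genes apart in the RefSeq order were taken as a run, 15 of the 37 fell into 3 runs. The other 22 lay alone. Of the 15 genes in runs, 3 were higher and 3 lower, and of the 22 others 8 were higher and 1 was lower. Among all genes tested, 11.4% were higher and 11.9% lower. The counts in and outside runs are small, and the difference between them was not tested, so no contrast is drawn from them.

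Differences between neighbours in a run are given as values and were not tested. On chromosome IV, gst-3, gst-2 and gst-4 follow each other directly. Their means were -1.96, -0.87 and 0.54, and the order was the same in every prep. The log2 ratio of gst-4 exceeded that of gst-3 by 2.28, 2.32 and 2.90 and that of gst-2 by 1.17, 1.30 and 1.76. The ratio of gst-3 was below that of gst-2 by a steady amount, with differences of -1.11, -1.02 and -1.14.

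On chromosome II, gst-6, gst-7 and gst-8 follow each other, with gst-9 close by. Here gst-7 was higher and gst-9 lower, 2.65, 2.62 and 1.95 log2 units apart in preps 1, 2 and 3, while gst-6 and gst-8 did not pass. The largest measured run, with 8 measured genes and gst-17 unmeasured, is also on chromosome II. In the order gst-20, gst-24, gst-15, gst-14, gst-12, gst-16, gst-19 and gst-18, the higher genes gst-24 and gst-14 stood among 6 that did not pass. The means of gst-15, gst-12, gst-16, gst-19 and gst-18 lay between -0.08 and 0.17. Neighbouring gst genes share sequence, so a probe may also take up RNA of a neighbour, which was not tested, since probe sequences were not used here.

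**Figure D3:**
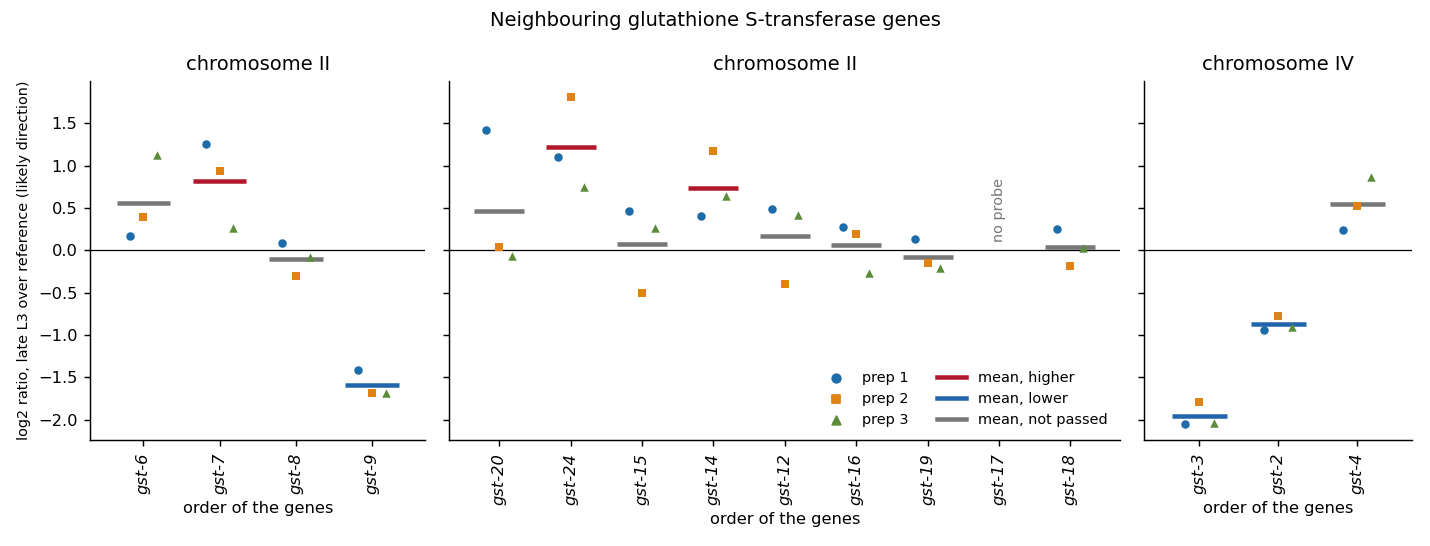
Log2 ratio (vertical axis) in the 3 preps, with the mean as a bar coloured by the limma call, for the 3 runs of neighbouring genes, placed in gene order without distances. The values step up from gst-3 through gst-2 to gst-4 on chromosome IV, and gst-9 lies well below its neighbours on chromosome II.

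The intestine is a main site of gst expression, and most of its markers were higher, as were most epidermal and body wall muscle markers. Of 8 intestinal markers, 6 were higher and 0 lower, with a median log2 ratio of 1.36 and medians of 1.76, 1.59 and 1.11 in preps 1, 2 and 3. The gut peptide transporter gene pept-1 was at 2.30 and the gut-specific V-ATPase subunit gene vha-6 at 2.43, while the gut transcription factor gene elt-2 (0.15, adjusted p = 0.670) and the metallothionein gene mtl-2 (0.09, adjusted p = 0.874) did not pass. Epidermal markers had 3 of 5 higher, with a median of 1.95 and medians of 0.57, 2.47 and 2.70 in preps 1, 2 and 3. Body wall muscle markers had 3 of 4 higher, with a median of 2.37 and medians of 2.13, 2.68 and 1.86. Nerve markers had 0 of 5 higher, with a median of 0.06, and 0 were lower in these 3 lists. In limma 0 nerve markers had an unadjusted p under 0.05. Of 3 adult yolk markers, 0 were higher and 1 was lower. That gene, vit-2, was at -5.63, while vit-5 (0.27, adjusted p = 0.401) and vit-6 (-0.01, adjusted p = 0.973) did not pass. Medians of the gst, gsto and gstk members were 0.28, 0.19 and 0.03 in preps 1, 2 and 3. The part of intestinal, epidermal or muscle RNA in the members' ratios was not tested.

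The other large families of detoxification enzymes were set beside the transferases. Cytochrome P450 cyp genes, which oxidise compounds in the first phase of detoxification, had 10 higher and 10 lower of 67 (14.9% each), with a median of 0.01. Glucuronosyltransferase ugt genes, which attach sugars to compounds, had 26 higher (41.3%) and 3 lower (4.76%) of 63, with a median of 0.50. The median of 0.17 and the 29.7% higher of the transferases lay between those of the other families. With the identifier trend subtracted the medians were 0.026, -0.0011 and 0.518 for transferases, cyp and ugt genes, and without prep 1 the transferase median of -0.019 was below that of the cyp genes (0.067). Differences between the families were not tested.

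**Figure D4:**
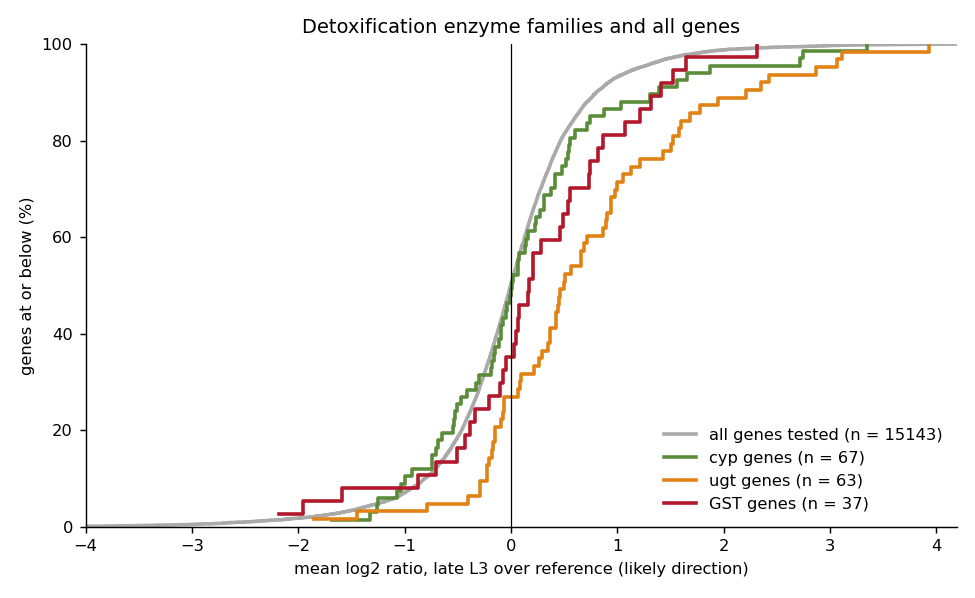
Percentage of genes at or below a given mean log2 ratio (vertical axis) against that ratio (horizontal axis) for 37 glutathione S-transferase, 67 cyp and 63 ugt genes and all 15143 genes tested. The curve of the glutathione S-transferase genes lies between those of the cyp and ugt genes over much of the range, with medians of 0.17, 0.01 and 0.50.

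In 6 lists of related genes, 10.3% of the 39 measured were higher and 15.4% lower, near the 11.4% and 11.9% of all genes. Of 5 measured genes that make and recycle glutathione, 1 was higher and 0 lower, with a median of 0.59. The gene idh-1, a cytosolic isocitrate dehydrogenase that supplies NADPH, was at 0.99, 1.08 and 0.67 (mean 0.91 ± 0.22, adjusted p = 0.012), and its call ended without prep 2. The glutathione synthetase gene gss-1 was at 0.47, 0.71 and 0.63 (adjusted p = 0.0624). The first enzyme of glutathione synthesis, encoded by gcs-1, a known SKN-1 target, was at 0.44, -0.02 and 0.38 (adjusted p = 0.409).

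Glutathione peroxidase genes had 1 lower (14.3%, against 11.9% of all genes) and 0 higher of 7 measured, with a median of -0.08. The lower gene, gpx-6, was at -1.66, -0.44 and -1.07 (mean -1.06 ± 0.61, adjusted p = 0.015), and its call ended without prep 1. The gene with the next largest mean in size, gpx-1, was at -0.07, -0.62 and -0.11 (adjusted p = 0.420). Thioredoxin and glutaredoxin genes likewise had 1 lower (11.1%) and 0 higher of 9. The lower gene, trxr-1, encodes the selenium-containing thioredoxin reductase of the worm, and was at -0.72, -0.86 and -0.73 (mean -0.77 ± 0.08, adjusted p = 0.0224). Its call ended without prep 2 or prep 3, or with the identifier trend subtracted (adjusted p = 0.0534). The mitochondrial thioredoxin gene trx-2 was at -0.65, -0.19 and -0.72 (adjusted p = 0.117). Of 3 glyoxalase and DJ-1 genes, which clear the glycolytic by-product methylglyoxal, 0 passed in limma and 0 had an unadjusted p under 0.05. The glyoxalase gene glod-4 was at -0.37, 0.01 and -0.73 and djr-1.1 at -0.49, 0.14 and -0.11.

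Regulators of SKN-1 had 1 higher and 3 lower of 10 measured, with a median of -0.06, which was 0.012 without prep 1 and 0.026 without prep 2. The transcript of skn-1 itself was at -0.15, -0.08 and -0.09, close to the median in every prep (adjusted p = 0.752). WDR-23, which holds SKN-1 down by directing its degradation, had a transcript at -1.38, -0.81 and -0.47 (mean -0.89 ± 0.46, adjusted p = 0.0224). The F-box protein gene xrep-4, needed for SKN-1 activation by chemical stress, was at -1.54, -1.0015 and -0.57 (mean -1.04 ± 0.49, adjusted p = 0.0118). Both were below the median in all preps, and both calls ended without prep 1 or prep 2. With the identifier trend subtracted wdr-23 was at -0.471 (adjusted p = 0.0966). Of the kinase genes of insulin signalling, akt-1 was at -0.92, -1.22 and -0.84 (mean -0.996 ± 0.20, adjusted p = 0.00738) and sgk-1 at 0.93, 0.98 and 0.53 (mean 0.81 ± 0.24, adjusted p = 0.0211). The akt-1 call ended without prep 2, and that of sgk-1 without prep 1 or prep 2 or with the trend subtracted (adjusted p = 0.0537).

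The route in which the gst-42 product acts breaks tyrosine down to fumarate and acetoacetate. Of 5 measured genes of the list, 2 were higher and 1 lower, with a median of 0.40. The homogentisate dioxygenase gene hgo-1, which acts just before gst-42, was lower at -1.39, -0.64 and -1.26 (mean -1.098 ± 0.41, adjusted p = 0.00697). The fumarylacetoacetase gene fah-1, which acts just after it, was at 0.81, 0.67 and 0.50 (mean 0.66 ± 0.15, adjusted p = 0.0455), and its call ended without any 1 of the preps. The other higher gene, nkat-3 at 1.72, 1.29 and 1.47 (mean 1.49 ± 0.22, adjusted p = 0.000777), is named for a kynurenine aminotransferase, which belongs to tryptophan rather than tyrosine breakdown.

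**Figure D5:**
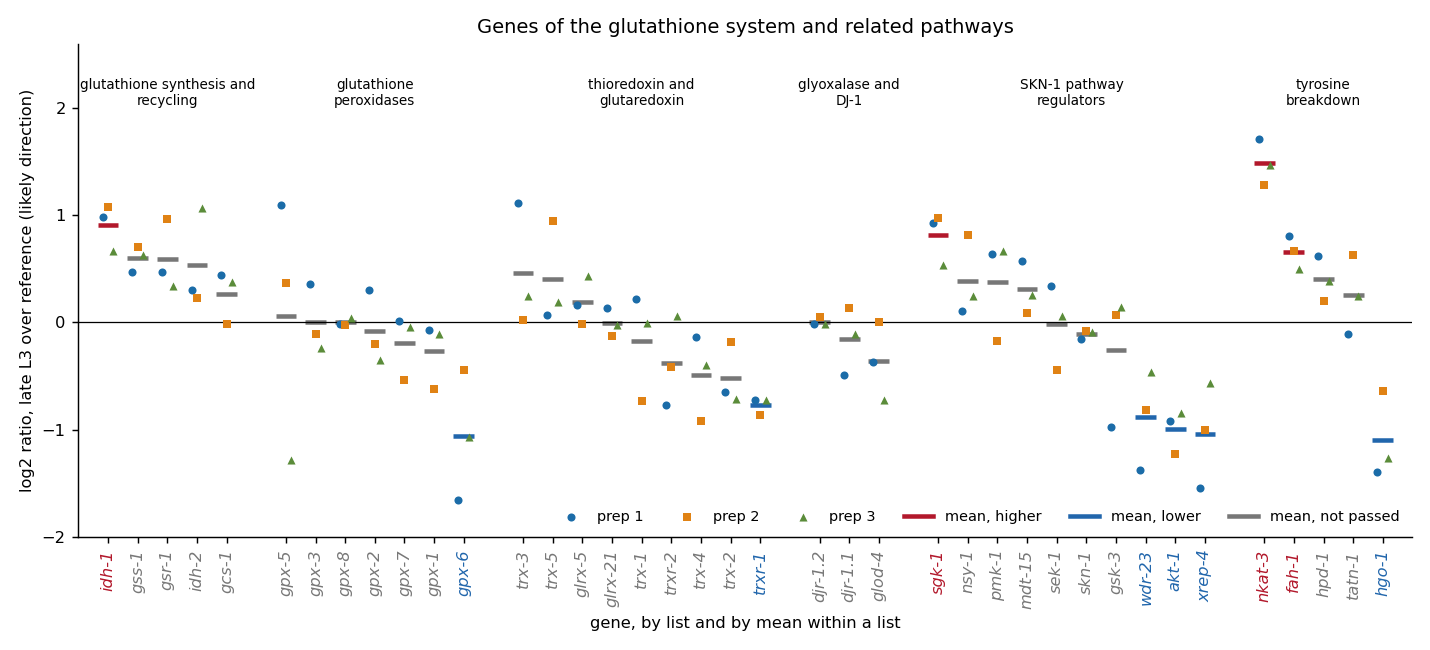
Log2 ratio (vertical axis) in the 3 preps for the 39 measured genes of 6 lists, with the mean as a bar coloured by the limma call. Across the lists 4 genes were higher (10.3%, against 11.4% of all genes) and 6 lower (15.4%, against 11.9%). The largest mean was that of nkat-3 at 1.49 and the lowest that of hgo-1 at -1.098.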

How the data were processed

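Transcripts of 3 preps of late L3 hermaphrodites were measured on 2-colour arrays against a wild-type mixed reference, per the labels. The deposited values are log2 ratios of the channels, and their base was inferred from how the ratios were rounded. The authors' normalization of these log2 ratios, the dyes, the numerator channel and the image software are not stated in the sources at hand. Larvae over reference is the likely direction because the descriptions name the larvae first. Spot intensities were not analysed here, so background and saturation are unknown, and array values carry no count depth.

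Of 20000 probes, 15655 had 1 gene in the probe table, 198 had several and 4147 had none. RefSeq names (WBcel235) were matched through the gene ID for 15569 probes and through an accession for 7. The remaining 79 kept an older name, gst-25 among them, while the other 36 members matched by gene ID. Coordinates are left out because the probes' build is unknown here.

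After median centring of each array, probes of a gene were averaged. The 15143 genes measured on all 3 arrays were compared with 0 in limma 3.58.1 (R 4.3.3), using an intercept-only lmFit and eBayes with a prior of 7.93 degrees of freedom and an SD of 0.397. P-values are 2-sided and Benjamini-Hochberg adjusted over all of these genes, with a threshold of 0.05. The spread of the reference does not enter. The fit was also run on simulated data with independent normal errors. Those data lack the unequal spread of the arrays and the identifier trend, so that run does not check the calls made here. Errors are SD over the preps, and matplotlib 3.10.9 (Python 3.11.15) drew the plots. Any member could be named, and of each other list up to 4 genes with the largest means past the threshold, or the 2 with the largest means where fewer than 2 passed. Members and lists were chosen with earlier results of these data known. The genes gcs-1 and skn-1 lie outside that rule and were added after their values were seen, as were the intestinal and yolk markers named.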

Additional observations from a re-analysis of the deposited data

How the results depend on the processing

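Beside the reported setting, 16 others were run, and stricter thresholds for the counts. Of the 15 calls among the members, 8 passed the threshold in all 16 settings except the test that shares no spread between genes, with the same direction in each but the turned sign: the higher genes gst-38, gsto-1, gst-13, gst-36 and gstk-1 and the lower genes gst-41, gst-3 and gst-9. That test called 0 members higher and 0 lower, and 0 of all 15143 genes in either direction. Of the members, 11 had an unadjusted p under 0.05 there, against 18 with limma. The share of all genes at that unadjusted threshold was not counted, so these member counts have no background beside them. Leaving out each prep gave 5 to 9 higher and 3 to 5 lower members and a median from -0.019 to 0.36. Of all genes, 5.02% to 11.5% were then higher and 6.61% to 10.2% lower. An adjusted p under 0.01 left 7 higher, as did a requirement of 2-fold. With a running median along the probe identifiers subtracted, 8 members were higher (against 11.5% of all genes), without gst-1, gst-14 and gst-42. The member median was then 0.026. The calls of trxr-1, wdr-23 and sgk-1 ended there too. With array weights gst-7 was not called. The causes were not tested. Quantile normalization added gst-30 to the lower genes, where 13.7% of all genes were called higher and 13.9% lower. Leaving out the 10% of genes with the largest SD added gst-30 too, and gst-4 and gst-6 to the higher ones. Of the 13628 genes kept there, 2238 were called higher and 2457 lower, against 1720 and 1804 of 15143 in the reported setting. The adjusted p of gst-38 in limma fell there from 6.84e-05 to 8.62e-26. Removing genes by their SD narrows the shared spread, so no conclusion is drawn from the calls added there. List medians under the identifier trend were 0.73 for glutathione synthesis, -0.32 for thioredoxin and glutaredoxin and 0.20 for tyrosine breakdown, and leaving out each prep moved those of peroxidases from -0.29 to -0.016, of thioredoxin and glutaredoxin from -0.25 to 0.055, of SKN-1 regulators from -0.082 to 0.026 and of glyoxalase from -0.300 to 0.014.

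Turning the sign of all arrays, by construction, gave 4 higher and 11 lower members with a median of -0.17. The means were then -2.32 for gst-38, -1.65 for gsto-1, -1.53 for gst-13, -1.42 for gst-36, -1.32 for gstk-1, -1.22 for gst-24, -1.07 for gst-1, -0.87 for gst-5, -0.82 for gst-7, -0.74 for gst-42 and -0.73 for gst-14, and 2.18, 1.96, 1.59 and 0.87 for gst-41, gst-3, gst-9 and gst-2. Other genes were at -0.91 (idh-1), 1.06 (gpx-6), 0.77 (trxr-1), 1.04 (xrep-4), 0.996 (akt-1), 0.89 (wdr-23), -0.81 (sgk-1), -1.49 (nkat-3), 1.098 (hgo-1) and -0.66 (fah-1). List medians were -0.59, 0.08, 0.17, 0.15, 0.059 and -0.40 for glutathione synthesis, peroxidases, thioredoxin and glutaredoxin, glyoxalase, SKN-1 regulators and tyrosine breakdown. No paired analysis was possible because there is 1 group, measured against a common reference.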
